A study of Mus musculus with 10 samples.

Results

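The myeloid C-type lectin receptors described here are 10 genes, Clec12a, Clec4b1, Clec4a1, Clec4a2, Clec4a3, Clec4n, Clec4d, Clec4e, Clec10a and Clec7a, of 45706 genes in the count matrix. The family was chosen on measured values, because Clec12a and Clec4b1 rose strongly in Ptgs-/- tumors against Ptgs+/+ tumors. The members were then listed by symbol, with earlier results of these data known, so the list is not independent of their values. All the tumors grew from a C57BL/6 mouse melanoma line driven by oncogenic Braf on a p16INK4a-deficient background, injected under the skin of C57BL/6 hosts that were 8 weeks old, and bulk RNA was prepared on day 4. The cells were COX-competent (Ptgs+/+) or had been made deficient for both Ptgs1 and Ptgs2, the genes of the cyclooxygenases that start prostaglandin synthesis, by CRISPR/Cas9 (Ptgs-/-). Untreated hosts gave 4 tumors of the COX-competent and 3 of the deficient cells. A further 3 Ptgs-/- tumors came from NK cell-depleted hosts that, by the sample labels, had been given 2 antibodies on day 0 and again on day 2, PK136 against NK1.1 at 200 µg and one against asialo GM1 at 30 µg. The paper's methods give another schedule for depletion, with doses of 200 µg from the day before implantation and then every 3 days. Host cells were not edited in any group, and no COX-competent tumor of an NK cell-depleted host was analysed here, so the effect of depletion can be read in Ptgs-/- tumors only. Whether each cell line was a single clone is not given in the sources used here.

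C-type lectin receptors are membrane proteins that carry a lectin fold outside the cell and are used by macrophages, monocytes, dendritic cells and neutrophils to sense sugars, lipids and products of dying cells. Activating members pass a signal through the kinase Syk and the adaptor Card9, either by a tyrosine motif of their own, as Dectin-1 (Clec7a) does, or through the shared adaptor chain FcRγ (Fcer1g), as Dectin-2 (Clec4n), MCL (Clec4d), Mincle (Clec4e) and DCAR (Clec4b1) do. Inhibitory members such as MICL (Clec12a) and DCIR (Clec4a2) carry an immunoreceptor tyrosine-based inhibitory motif that recruits phosphatases of the SHP family. MGL1 (Clec10a) binds galactose-type sugars and takes its cargo into the cell.

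The promoters of the members that moved most, Clec12a and Clec4b1 upward and Clec4d and Clec4e downward, are shown so that the sequences can be read beside the values. They are the 250 bases before the RefSeq start on GRCm38.p6, written 5′ to 3′ along the gene's own strand. Capitals mark GAGGAA, the core letters bound by the myeloid factor PU.1, or its complement TTCCTC.
Clec12a, chr6:129349994-129350243, plus strand: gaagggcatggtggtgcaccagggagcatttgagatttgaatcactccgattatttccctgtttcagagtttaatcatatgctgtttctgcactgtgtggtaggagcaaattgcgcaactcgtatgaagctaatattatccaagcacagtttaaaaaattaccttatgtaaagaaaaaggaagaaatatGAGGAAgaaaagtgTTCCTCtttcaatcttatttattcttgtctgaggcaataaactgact
Clec4b1, chr6:123049712-123049961, plus strand: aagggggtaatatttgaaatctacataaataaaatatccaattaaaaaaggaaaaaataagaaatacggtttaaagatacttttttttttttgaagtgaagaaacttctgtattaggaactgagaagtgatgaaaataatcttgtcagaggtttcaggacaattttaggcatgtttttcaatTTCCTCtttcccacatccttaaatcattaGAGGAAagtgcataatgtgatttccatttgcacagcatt
Clec4d, chr6:123261857-123262106, plus strand: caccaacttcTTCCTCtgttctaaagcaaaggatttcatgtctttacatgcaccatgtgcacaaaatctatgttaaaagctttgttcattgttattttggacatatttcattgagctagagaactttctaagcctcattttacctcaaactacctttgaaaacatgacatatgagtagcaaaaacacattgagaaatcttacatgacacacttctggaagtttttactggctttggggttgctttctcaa
Clec4e, chr6:123289872-123290121, minus strand: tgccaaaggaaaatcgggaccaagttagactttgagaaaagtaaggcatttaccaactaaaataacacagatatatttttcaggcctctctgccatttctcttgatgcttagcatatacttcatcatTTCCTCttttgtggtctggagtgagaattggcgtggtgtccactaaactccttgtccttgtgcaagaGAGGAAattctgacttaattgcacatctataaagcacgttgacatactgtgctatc
The letters GAGGAA stood on either strand in at least 1 window of 7 of the 8 members for which a RefSeq promoter was at hand, namely all but Clec4a2, and in 23.3% of all 32851 promoter windows of the same length. The receptors that rose and those that fell both held it, with 2 matches each in the windows of Clec12a, Clec4b1 and Clec4e and 1 in that of Clec4d. The looser C/EBP pattern TTNNGNAA stood in 4 of the 8 (Clec12a, Clec4a2, Clec4d and Clec4e) and in 36.8% of all windows. The consensus of the interferon-stimulated response element stood in 1 member, Clec4b1, where it overlaps the first of its GAGGAA matches, and in 2.98% of all windows. The gamma-activated site TTCNNNGAA stood in Clec4a2 alone of the members and in 7.02% of windows, and the AP-1 site TGANTCA in Clec12a alone and in 6.75%. The consensus of NF-kB stood in Clec4a1 alone and in 45.8%, and the core of the cAMP response element, TGACG, in none of the members and in 17.8%. These matches are letters in a window and not measured binding. Clec4a3 and Clec7a each had 2 windows, and the starts that RefSeq gives for Clec12a, Clec4a2 and 1 of the windows of Clec4a3 lie inside the gene as the GENCODE annotation draws it.

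Libraries held between 8150556 and 12839174 counts. Reads came from the 3′ ends of transcripts, so longer genes do not gain counts by their length, and levels in CPM (the usual depth-scaled count, with TMM factors) can be set beside each other between genes. A floor of 3 counts corresponded to between 0.238 and 0.364 CPM, counting error only. Ptgs2 was at 96.7 to 353.4 CPM in Ptgs+/+ tumors, at 26 to 74 in Ptgs-/- tumors and at 40.5 to 49.5 in NK cell-depleted Ptgs-/- tumors. Host cells still carry the gene, and which cells gave the reads in Ptgs-/- tumors was not tested. Ptgs1 was at 128 to 173.3, 76.1 to 104.1 and 94.9 to 98.5 CPM in the same order. The NK cell gene Ncr1 had 0 counts in every depleted tumor, and the summed level of 8 NK cell markers was 8.05 to 9.2 CPM there against 17.8 to 38.2 in Ptgs+/+ and 74.6 to 151.9 in Ptgs-/- tumors. Of the melanocytic markers behind the label melanoma, Tyrp1 and Mlana were at 0 counts in all Ptgs+/+ tumors, and the 7 genes summed to 20.6 to 37.3 CPM over all tumors, with 17.4 to 32.7 CPM of that from Mitf. The depleted tumors also stood apart in 6 skeletal muscle genes, which summed to between 2091.7 and 4858.9 CPM against no more than 333.9 in the other tumors. Ptgs+/+ replicate 4 and Ptgs-/- replicate 3 carry another experiment code in their labels than the other 8 libraries, and all the depleted tumors share 1 code.

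In Ptgs+/+ tumors the 10 receptors covered a wide range of levels. Clec10a was highest at 230.8 ± 54.5 CPM (SD, n = 4) and stood above all the others. Clec4n (109.3 ± 10.5), Clec4a1 (107 ± 17.1), Clec4a2 (79 ± 9.42) and Clec4a3 (62.2 ± 13.7) followed, and each overlapped with the next in this order. Clec4d (42.8 ± 7.19) and Clec7a (19.2 ± 4.72) came next without overlap. Clec4b1 (9.76 ± 2.46) and Clec4e (9.75 ± 1.16) could not be told apart by their tumors, and Clec12a was lowest at 7.2 ± 0.78. In Ptgs-/- tumors Clec10a kept the highest level and Clec4e (2.9 ± 1.26 CPM, n = 3) took the lowest, while Clec4b1 (89.6 ± 28) and Clec12a (57.2 ± 13.4) overlapped with Clec4n (66.2 ± 10.9), from which they had lain apart in the COX-competent tumors.

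**Figure D1:**
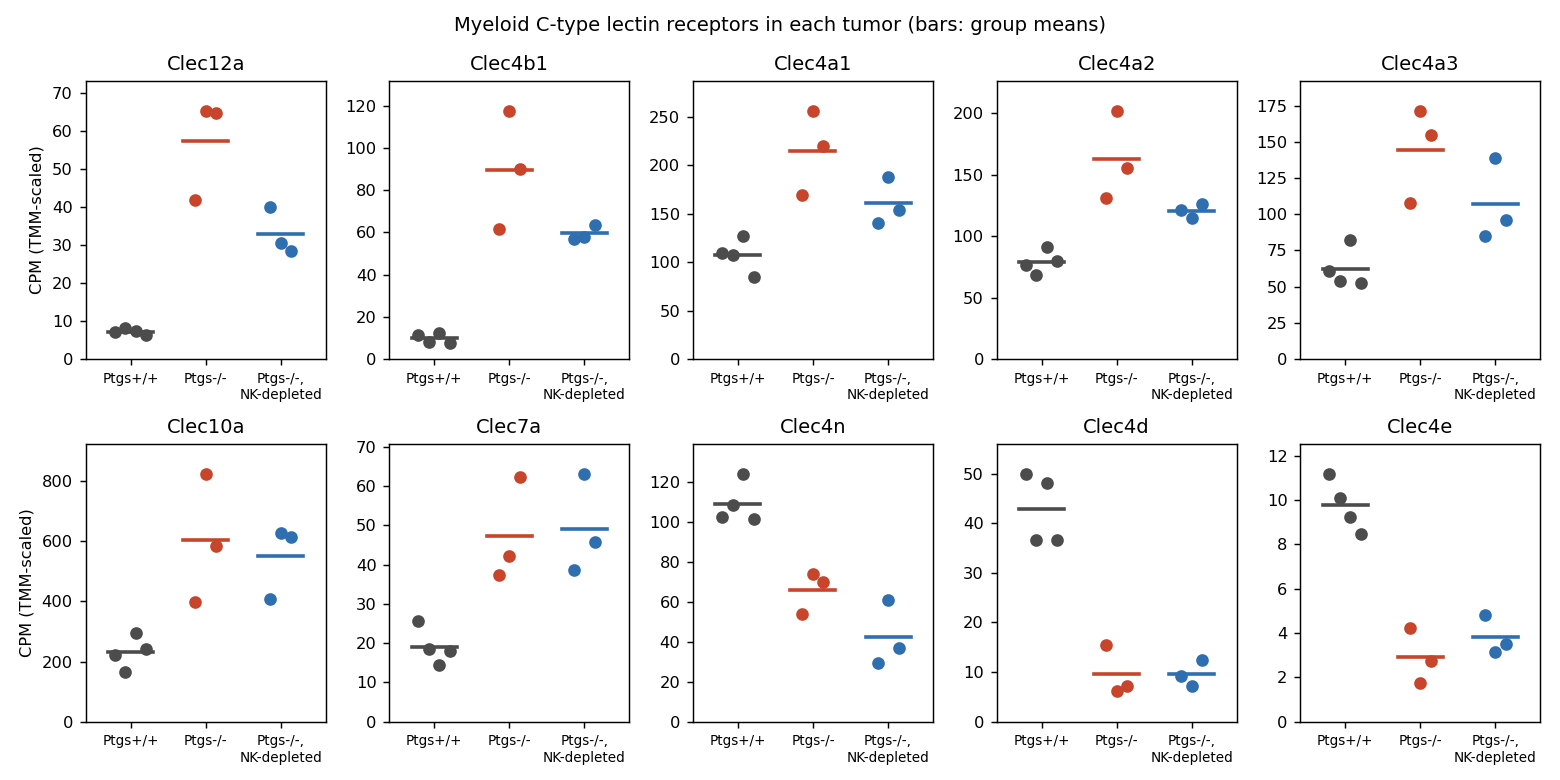
Level of each receptor in CPM (vertical axis, linear and starting at 0, its own scale in each panel) in every tumor of the 3 groups, with points for tumors and bars for group means. The Ptgs+/+ points lie below both other groups in the 7 panels from Clec12a to Clec7a and above both in the panels of Clec4n, Clec4d and Clec4e.

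Among the inhibitory receptors, Clec12a (ENSMUSG00000053063, chromosome 6 from 129342691 to 129365303, plus strand, GRCm38) was at 6.99, 8.15, 7.37 and 6.28 CPM in the Ptgs+/+ tumors and at 41.8, 65.3 and 64.6 CPM in the Ptgs-/- tumors. In the NK cell-depleted Ptgs-/- tumors it was at 40.1, 30.4 and 28.5 CPM. No tumor of one genotype reached the range of the other, and each depleted tumor lay under each Ptgs-/- tumor of an untreated host. The counts behind these values ran from 60 to 88 in Ptgs+/+ libraries and from 291 to 736 in the others. The level in Ptgs-/- over Ptgs+/+ tumors was 7.96-fold, a log2 fold change of 2.99 with a standard error (SE) of 0.19, which is the contrast that chose the gene and is given as a description. In depleted Ptgs-/- tumors it was 4.58-fold that of Ptgs+/+ tumors (log2 fold change 2.19, SE 0.19, edgeR's quasi-likelihood test, adjusted p = 6.15e-05), a comparison that shares the Ptgs+/+ tumors with the one used for the choice.

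Clec4a1, Clec4a2 and Clec4a3, the DCIR-like genes of which Clec4a2 is the mouse counterpart of human CLEC4A, moved by less. Clec4a1 was at 109.2, 107.3, 126.5 and 85 CPM in Ptgs+/+ tumors, at 169.4, 256 and 219.7 in Ptgs-/- tumors and at 140.3, 187.7 and 153.6 in depleted tumors. Clec4a2 was at 76.4, 68.4, 91.1 and 79.9 CPM, then at 130.9, 202 and 155.5, and in depleted tumors at 121.4, 114.8 and 126. Clec4a3 was at 60.8, 53.7, 82 and 52.4 CPM, then at 107.9, 171.4 and 154.6, and in depleted tumors at 84.9, 139.1 and 96.3. In each of the 3 genes every Ptgs-/- tumor, depleted or not, was above every Ptgs+/+ tumor. The log2 fold changes in Ptgs-/- over Ptgs+/+ tumors were 1.01, 1.04 and 1.22 in the order above, and in depleted over Ptgs+/+ tumors 0.59, 0.61 and 0.78. The latter passed edgeR's test with adjusted p-values of 0.0393, 0.0164 and 0.0345. These 3 calls were near the threshold: over 20 other settings, the adjusted p of Clec4a1 ran from 0.00518 to 0.162 and passed in 12, that of Clec4a3 ran from 0.00164 to 0.161 and passed in 13, and that of Clec4a2 ran from 0.00164 to 0.0688 and passed in 17. The call of Clec4a1 was lost without any one of Ptgs+/+ replicates 1, 2 and 4 and depleted replicates 1, 2 and 3, that of Clec4a3 without the same tumors except depleted replicate 1, and that of Clec4a2 without Ptgs+/+ replicate 2, depleted replicate 1 or depleted replicate 3. Without depleted replicate 2, the highest of its group in Clec4a1 and Clec4a3, these were at 0.46 (adjusted p = 0.162) and 0.54 (adjusted p = 0.161).

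Of the receptors that signal through FcRγ, Clec4b1 rose and the other 3 fell. Clec4b1 (ENSMUSG00000030147), whose product DCAR is found on dendritic cells and monocyte-derived cells, was at 11.3, 7.93, 12.4 and 7.43 CPM in Ptgs+/+ tumors, at 61.5, 117.5 and 90 in Ptgs-/- tumors and at 57, 57.8 and 63.6 in depleted tumors. The rise in Ptgs-/- over Ptgs+/+ tumors was 9.13-fold (log2 fold change 3.19, SE 0.23), the largest of the 10 and, like that of Clec12a, the reason the family was chosen. In depleted tumors the level was 6.05-fold that of Ptgs+/+ tumors (log2 fold change 2.6, SE 0.22, edgeR adjusted p = 6.63e-05). The depleted tumors lay close together, with a coefficient of variation of 6.11% against 31.2% in Ptgs-/- tumors of untreated hosts.

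Clec4n, which encodes the mannan receptor Dectin-2, was at 102.5, 108.5, 124.5 and 101.8 CPM in Ptgs+/+ tumors. It was at 53.8, 74.3 and 70.3 CPM in Ptgs-/- tumors and at 29.4, 61.1 and 37.2 in depleted tumors. All 6 Ptgs-/- tumors lay under all 4 Ptgs+/+ tumors, by a log2 fold change of -0.72 (SE 0.21) in untreated and -1.36 (SE 0.22) in depleted hosts, where edgeR's adjusted p was 0.00212. Clec4d, which encodes MCL, the partner of Mincle, was at 50, 36.6, 48.1 and 36.7 CPM in Ptgs+/+ tumors. It was at 15.4, 6.24 and 7.29 CPM in Ptgs-/- tumors and at 9.23, 7.16 and 12.5 in depleted tumors. The level was 4.5-fold lower in Ptgs-/- and 4.45-fold lower in depleted Ptgs-/- tumors than in Ptgs+/+ tumors (log2 fold changes -2.17, SE 0.3, and -2.15, SE 0.3), with an adjusted p of 0.00084 (edgeR) for the latter.

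Clec4e encodes Mincle, a receptor for mycobacterial glycolipids and for Sap130 of dead cells that macrophages induce under inflammatory stimuli. It was the lowest of the 10 over all tumors, at 11.2, 10.1, 9.26 and 8.47 CPM in Ptgs+/+ tumors, at 4.24, 1.74 and 2.72 in Ptgs-/- tumors and at 4.83, 3.16 and 3.52 in depleted tumors. The lowest of these values rests on 17 counts, still over the floor of 3. Both sets of Ptgs-/- tumors overlapped with each other and lay under all Ptgs+/+ tumors, with log2 fold changes of -1.76 (SE 0.28) in Ptgs-/- tumors and -1.35 (SE 0.27, edgeR adjusted p = 0.00697) in depleted tumors against Ptgs+/+ tumors.

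Clec7a, the β-glucan receptor Dectin-1, was at 25.7, 18.4, 14.5 and 18 CPM in Ptgs+/+ tumors, at 37.3, 42.2 and 62.4 in Ptgs-/- tumors and at 38.7, 63.2 and 45.7 in depleted tumors. The 2 sets of Ptgs-/- tumors covered nearly the same range, above all Ptgs+/+ tumors. The log2 fold change over Ptgs+/+ tumors was 1.3 (SE 0.23) in untreated and 1.36 (SE 0.23, edgeR adjusted p = 0.00317) in depleted hosts. The GENCODE M21 annotation lists Clec7a as a polymorphic pseudogene, a label for genes whose coding sequence is intact in some strains only. Clec10a, the endocytic galactose-type receptor MGL1 on chromosome 11 (70156197 to 70170834), was at 222.1, 163.9, 296 and 241.2 CPM in Ptgs+/+ tumors. It was at 397.4, 824.9 and 585 CPM in Ptgs-/- tumors and at 406.4, 626.7 and 614.6 in depleted tumors. Its log2 fold change was 1.38 (SE 0.25) in untreated and 1.25 (SE 0.25, edgeR adjusted p = 0.00762) in depleted hosts, and no group overlapped with the Ptgs+/+ tumors.

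**Figure D2:**
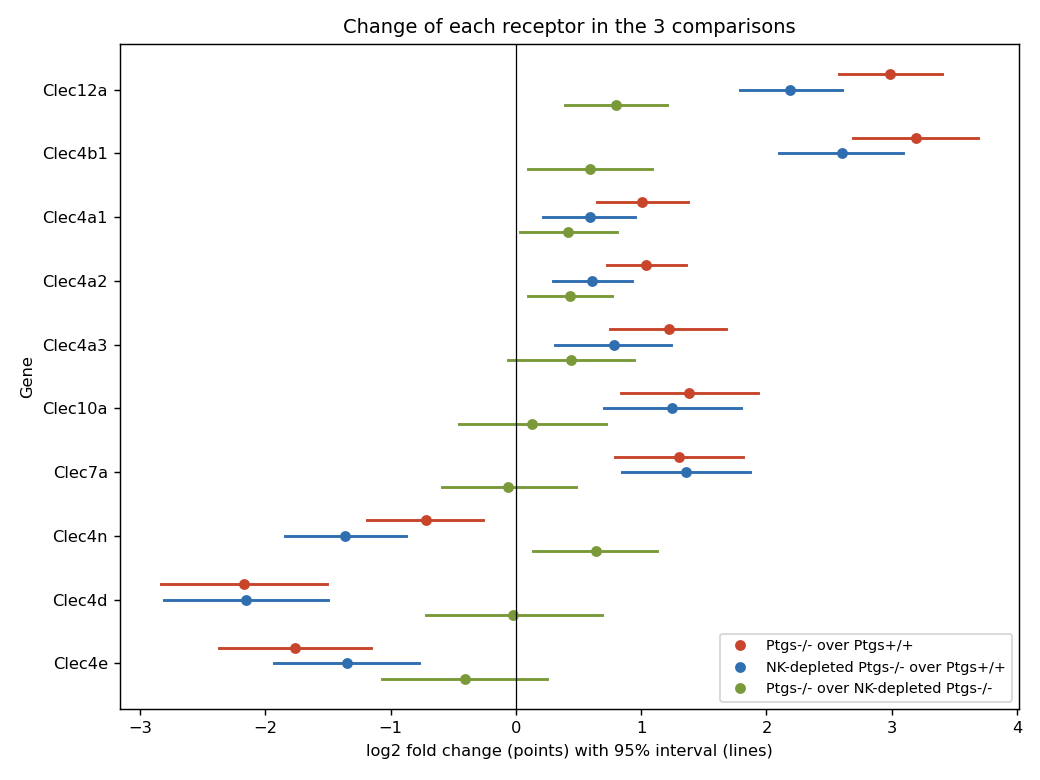
Log2 fold change of each receptor (points) with its 95% interval from the edgeR fit (lines) in Ptgs-/- over Ptgs+/+ tumors, in NK cell-depleted Ptgs-/- over Ptgs+/+ tumors, and in Ptgs-/- over depleted Ptgs-/- tumors. The red and blue points of a gene fall on the same side of 0 for all 10 receptors, between -2.17 for Clec4d and 3.19 for Clec4b1, and the green points lie between -0.41 and 0.8.

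Against Ptgs+/+ tumors of untreated hosts, the direction was thus the same in Ptgs-/- tumors with and without NK cells, with 7 receptors higher and 3 lower. The depleted tumors differ from these Ptgs+/+ tumors in both genotype and depletion. All 10 receptors passed edgeR's filter on low counts, which kept 14550 genes. In depleted against Ptgs+/+ tumors, all 10 passed an FDR of 0.05 and 3 of them (Clec12a, Clec4b1 and Clec4d) also reached the log2 fold change of 1.5 in either direction that the study required. Over all genes tested, 6.63% passed the FDR upward and 5.87% downward, and 2.71% met both thresholds. The 7 and the 3 receptors were also those whose tumors did not overlap between these groups, as was the case for 13.6% of all genes upward and 13.1% downward. This comparison uses the same Ptgs+/+ tumors as the one that chose the family, and the members were chosen with earlier results known. The receptors' counts in it are therefore a description as well. In Ptgs-/- against Ptgs+/+ tumors, the contrast that chose the family, 4 receptors met both thresholds (4.15% of all genes), the FDR alone was passed by 12.1% of all genes upward and by 11% downward, and groups lay apart for 15.4% upward and 15.2% downward, figures that are given beside the members' 7 and 3 as a description only. The median log2 fold change was 1.13 over the 10 receptors and -0.01 over all genes in this contrast, and 0.7 and -0.01 in depleted against Ptgs+/+ tumors. The 2 contrasts share the 4 Ptgs+/+ tumors, so their likeness is no separate evidence. Leaving out the tumors of the second experiment code left all 10 directions as they were, with log2 fold changes of 2.15 for Clec12a, 2.5 for Clec4b1 and -2.21 for Clec4d in depleted against Ptgs+/+ tumors, but Clec4a1 (0.5, adjusted p = 0.0949) and Clec4a3 (0.72, adjusted p = 0.0911) no longer passed edgeR's test.

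None of the receptors passed an FDR of 0.05 between Ptgs-/- tumors with and without NK cells, where 1.44% of all genes passed the FDR and 1.15% both thresholds. Before adjustment, 5 of the 10 had a p under 0.05 by edgeR's test, as did 1630 of 14550 genes, and DESeq2 passed 1 of the 10, Clec12a, at an adjusted p of 0.00747. Clec12a showed the largest difference, 1.74-fold higher with NK cells present (log2 fold change 0.8, 95% interval 0.39 to 1.21, edgeR adjusted p = 0.0714), and its tumors did not overlap between the 2 groups. Over 20 other settings its log2 fold change stayed between 0.71 and 0.98, and its adjusted p ran from 0.00747 to 0.302 and passed in 4, among them the fit without Ptgs-/- replicate 1, the tumor of its group with the lowest level (0.98, adjusted p = 0.00962). Ly6c2, a marker of inflammatory monocytes, was also higher with NK cells present (log2 fold change 1.16, SE 0.24, edgeR adjusted p = 0.0378), as was the pan-leukocyte gene Ptprc (0.82, SE 0.17, adjusted p = 0.038). Each was the only gene of its list, of 8 monocyte and 6 pan-leukocyte genes, that passed the FDR in this comparison. The macrophage marker sum described further on was higher by 0.39 on the log2 scale without overlap, and relative to the macrophage and pan-leukocyte sums Clec12a was higher by 0.4 and 0.34 with groups that overlapped. The part of these in the difference was not tested. Clec4a2 was the other receptor whose groups lay apart (log2 fold change 0.43, interval 0.1 to 0.77, adjusted p = 0.294), against 9.31% of all genes that lay apart upward. The interval of Clec4b1 ran from 0.1 to 1.09 around 0.59 (adjusted p = 0.338), and that of Clec4n from 0.14 to 1.13 around 0.64 (adjusted p = 0.295). Without depleted replicate 2, the tumor with the highest Clec4n level of its group, the difference in Clec4n was 0.99 with an adjusted p of 0.026. Clec10a (0.13, interval -0.45 to 0.72), Clec7a (-0.06, interval -0.59 to 0.48) and Clec4d (-0.02, interval -0.72 to 0.69) lay around 0, with intervals that reach to both sides. This contrast shares the Ptgs-/- tumors of untreated hosts with the one that chose the family.

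The 3 receptors that fell are neighbours on chromosome 6. Clec4a1, Clec4a3, Clec4b1 and Clec4a2, in this order, take up the first part of a stretch of 368 kb that ends with Clec4n, Clec4d and Clec4e, and the log2 fold changes in Ptgs-/- over Ptgs+/+ tumors along it were 1.01, 1.22, 3.19, 1.04, -0.72, -2.17 and -1.76. Counted from the start of Clec4a1, Clec4a2, the last that was higher, ends at 222.2 kb and Clec4n, the first that was lower, starts at 308 kb. The other 4 annotated genes of the stretch, among them Clec4a4 and Clec4b2, did not pass the filter on low counts, and Clec4b2 had 0 counts in all libraries. A second stretch of 130 kb, from Clec12a to Clec7a, holds 4 further genes. Of these Clec9a, a receptor of type 1 dendritic cells for the actin of dead cells, rose (log2 fold change 1.69, SE 0.4, edgeR adjusted p = 0.0106, and 1.53, SE 0.4, adjusted p = 0.0287 in depleted tumors), and Clec1a was at -0.64 and 0.01 in the same comparisons. Clec12b and Clec1b did not pass the filter, and Clec1b overlaps Clec9a on the same strand, so reads there could belong to either.

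**Figure D3:**
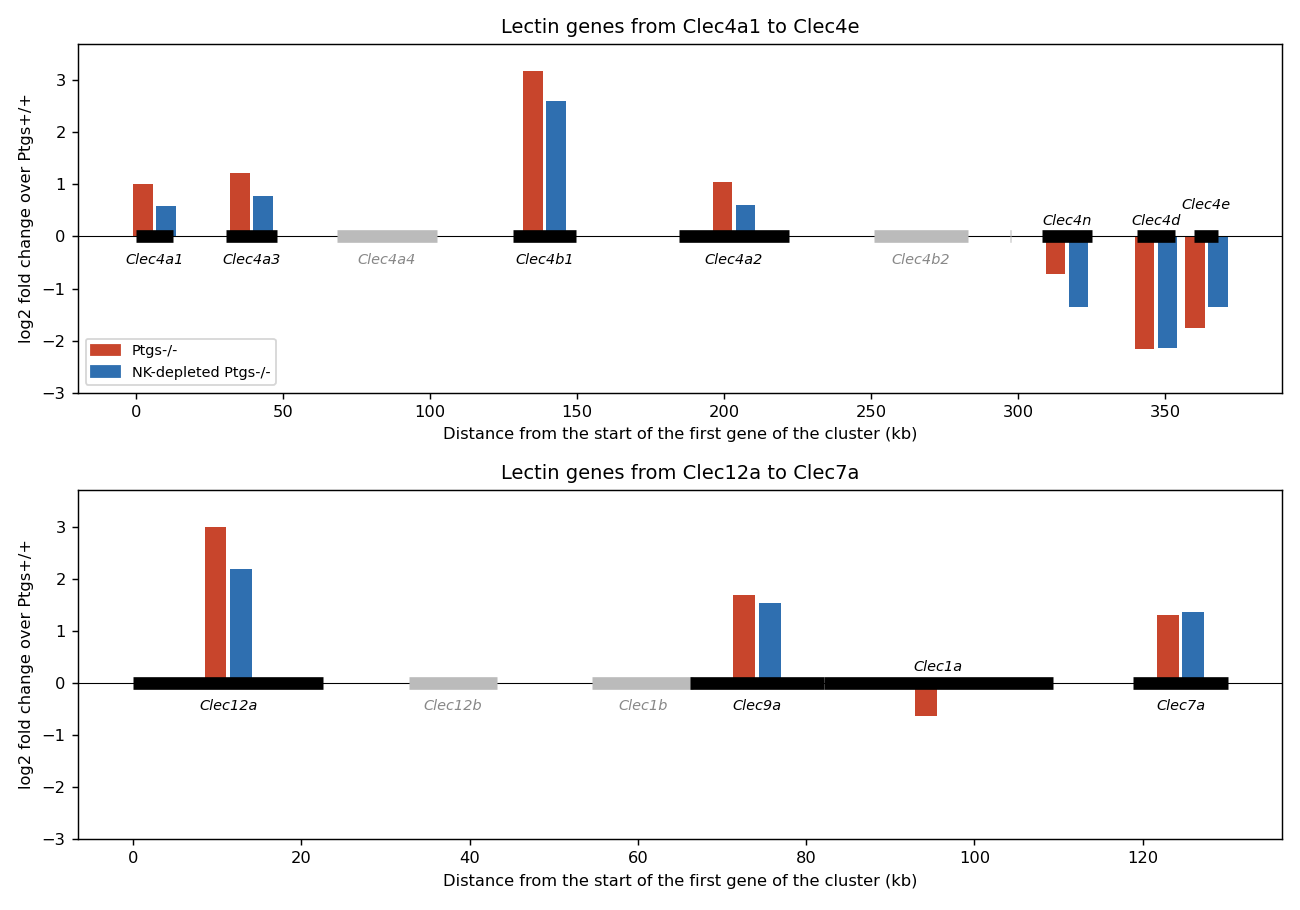
Lectin genes along the 2 stretches of chromosome 6 (horizontal axis, distance in kb from the start of the first gene; thick lines, gene bodies, black where tested and grey where counts were too low) and the log2 fold change over Ptgs+/+ tumors (bars) in Ptgs-/- tumors of untreated and of NK cell-depleted hosts. Bars point up from Clec4a1 to Clec4a2 and down from Clec4n to Clec4e, and in the lower panel up for Clec12a, Clec9a and Clec7a.

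Together the 10 receptors summed to 583.1 to 811.7 CPM in Ptgs+/+ tumors, 1019.7 to 1761.4 in Ptgs-/- tumors and 932.2 to 1291.1 in depleted tumors. The make-up of this sum changed with the genotype. Clec4n, Clec4d and Clec4e made up 24.1% ± 1.85 (SD, n = 4) of it in Ptgs+/+ tumors, 5.86% ± 1.28 (n = 3) in Ptgs-/- tumors and 4.9% ± 0.551 (n = 3) in depleted tumors, with 22.4% as the lowest share in a Ptgs+/+ tumor and 7.2% as the highest in any other. Clec12a and Clec4b1 went from 1.08% ± 0.217 and 1.43% ± 0.217 to 4.13% ± 0.437 and 6.36% ± 0.321, and to 3.02% ± 1.11 and 5.32% ± 0.818 in depleted tumors. Clec4a1, Clec4a2 and Clec4a3 together held 36.7% ± 2.15, 37.8% ± 2.16 and 34.4% ± 2.69 of the sum in the 3 groups, ranges that overlapped. Clec10a held the largest share in every tumor, between 28.1% and 52%.

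**Figure D4:**
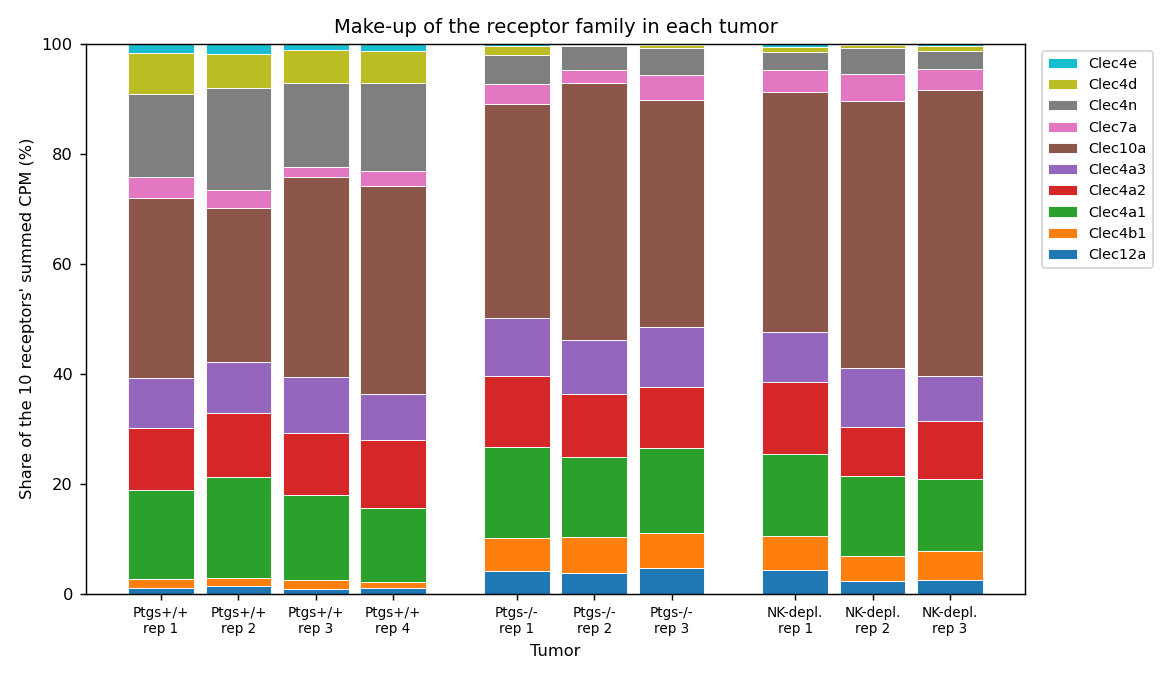
Share of each receptor in the summed CPM of the 10 receptors (vertical axis, %) in each tumor. The top 3 segments (Clec4e, Clec4d and Clec4n) shrink from 22.4% or more in the Ptgs+/+ tumors to 7.2% or less in the others, and the bottom pair (Clec12a and Clec4b1) widens.

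In bulk tumors, fewer cells of a type and less RNA per cell cannot be told apart, so the receptors were set beside marker genes of the cell types that could carry them. The summed level of 12 macrophage markers was 2562.4 to 3165.4 CPM in Ptgs+/+ tumors, 4157.7 to 6200.2 in Ptgs-/- tumors and 3890 to 3949.8 in depleted tumors, and none of the 12 was at 0. Of these 9 rose and none fell in Ptgs-/- tumors (Adgre1 by a log2 fold change of 1.31, Fcgr1 by 1.1, C1qc by 1.05), and 3 rose and Cd14 fell in depleted tumors. Set against this sum tumor by tumor, Clec12a was at 0.256% ± 0.0416 of it in Ptgs+/+ tumors, 1.11% ± 0.149 in Ptgs-/- and 0.844% ± 0.162 in depleted tumors, and Clec4b1 at 0.341% ± 0.0588, 1.72% ± 0.216 and 1.52% ± 0.0999. Both stayed higher in every Ptgs-/- tumor than in any Ptgs+/+ tumor, by 2.12 and 2.33 on the log2 scale in untreated hosts. Clec4a1 was at 3.77% ± 0.458, 4.19% ± 0.153 and 4.1% ± 0.591 of the same sum, with groups that overlapped. Clec4a2 and Clec4a3 lay 0.18 and 0.37 (log2) above Ptgs+/+ tumors in untreated hosts, without overlap, and 0.15 and 0.32 above them in depleted hosts, with overlap. For Clec10a the ratio was higher by 0.51 and 0.8 without overlap, and for Clec7a by 0.46 with overlap and by 0.88 without. Set against the pan-leukocyte sum instead, Clec4a2, Clec4a3, Clec10a and Clec7a were up by 0.13, 0.3, 0.44 and 0.4 in untreated hosts, all with overlap. In depleted hosts Clec10a (0.76) and Clec7a (0.86) stayed apart from Ptgs+/+ tumors on that sum, while Clec4a2 (0.14) and Clec4a3 (0.29) overlapped. Clec4n, Clec4d and Clec4e fell relative to the macrophage sum by more than they fell in CPM, by -1.58, -2.88 and -2.5 on the log2 scale. These ratios, and those to other lists that follow, are descriptions without a test.

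Of 8 monocyte markers 5 rose and 1 fell in Ptgs-/- tumors, led by Ly6c2 (log2 fold change 2.19) and Ccr2 (1.75), the chemokine receptor that brings monocytes into tissue, while Vcan fell by 0.93. In depleted tumors 4 rose and 1 fell. Their sum was 1223.9 to 1600 CPM in Ptgs+/+, 2714.4 to 3179.6 in Ptgs-/- and 2133.4 to 2415.3 in depleted tumors, a rise of 0.98 and 0.63 on the log2 scale. Relative to it Clec12a was still up by 1.99 and Clec4b1 by 2.21 in Ptgs-/- tumors, without overlap with the Ptgs+/+ tumors. Relative to the same sum Clec4a1, Clec4a2, Clec4a3, Clec10a and Clec7a were up by 0.01, 0.05, 0.23, 0.4 and 0.34, all with overlap. This sum was led by Fn1, with a mean of 732.3 of 1462.6 CPM in Ptgs+/+ tumors, against 13 for Ly6c2. The ratio thus weighs Fn1, which rose by a log2 fold change of 0.89, far more than Ly6c2. Among 9 markers of type 2 dendritic cells 6 rose and none fell in Ptgs-/- tumors, with Ccl17 at 4.77, Irf4 at 2.43 and Mgl2, the sister gene of Clec10a, at 2.24, and 4 rose in depleted tumors. Relative to their sum, Clec12a was up by 2.07 and Clec4b1 by 2.24, while Clec10a was up by 0.42 with groups that overlapped. Sirpa, which rose by 0.57, led this sum with a mean of 286.6 of 397.2 CPM in Ptgs+/+ tumors. Ccl17 (0.508 CPM), Irf4 (5.92) and Mgl2 (26.9), which rose by more, add little to it. Of 8 markers of type 1 dendritic cells 7 rose in Ptgs-/- and 6 in depleted tumors, led by Batf3 (2.76 and 2.05) and Xcr1 (2.16 and 1.41). The part of any of these cell types in the receptors' change was not tested.

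Some of the neutrophil markers fell in Ptgs-/- tumors, as Clec4d and Clec4e did. Of 12 genes 8 passed the filter, and 4 of them fell in Ptgs-/- tumors and none rose (Mmp9 by a log2 fold change of -3.17, S100a9 by -2.7, S100a8 by -2.64, Cxcr2 by -2.32). In depleted tumors the same 4 genes fell and Retnlg rose. The defining marker Ly6g was at 0 to 5 counts in every library, with 0 in all 3 Ptgs-/- tumors of untreated hosts. The list summed to 445.2 to 682 CPM in Ptgs+/+, 106.7 to 160.9 in Ptgs-/- and 169.7 to 232.3 in depleted tumors. Mmp9 weighed most in the sum, with a mean of 296.2 of 604.2 CPM in Ptgs+/+ tumors. Relative to this sum, a ratio chosen after the values were seen, Clec4d was at 7.38% (5.42 to 10.8) in Ptgs+/+, 7.97% (3.88 to 14.4) in Ptgs-/- and 5.07% (3.08 to 7.39) in depleted tumors, and Clec4e at 1.65%, 2.38% and 1.97%, with overlap between all groups. For Clec4n the ratio was 18.9% (15 to 28) in Ptgs+/+ and 21.1% (15.1 to 26.3) in depleted tumors, with overlap. In Ptgs-/- tumors of untreated hosts it was higher, at 50.2% (46.2 to 54.1), without overlap with either. Whether the neutrophil signal accounts for the levels of Clec4d and Clec4e was not tested. Between Ptgs-/- tumors with and without NK cells, S100a8 and S100a9 were lower with NK cells (log2 fold changes -1.26 and -1.14, edgeR adjusted p = 0.00237 and 0.0116), while Clec4d lay at -0.02 (adjusted p = 0.989) and Clec4e at -0.41 (adjusted p = 0.676).

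**Figure D5:**
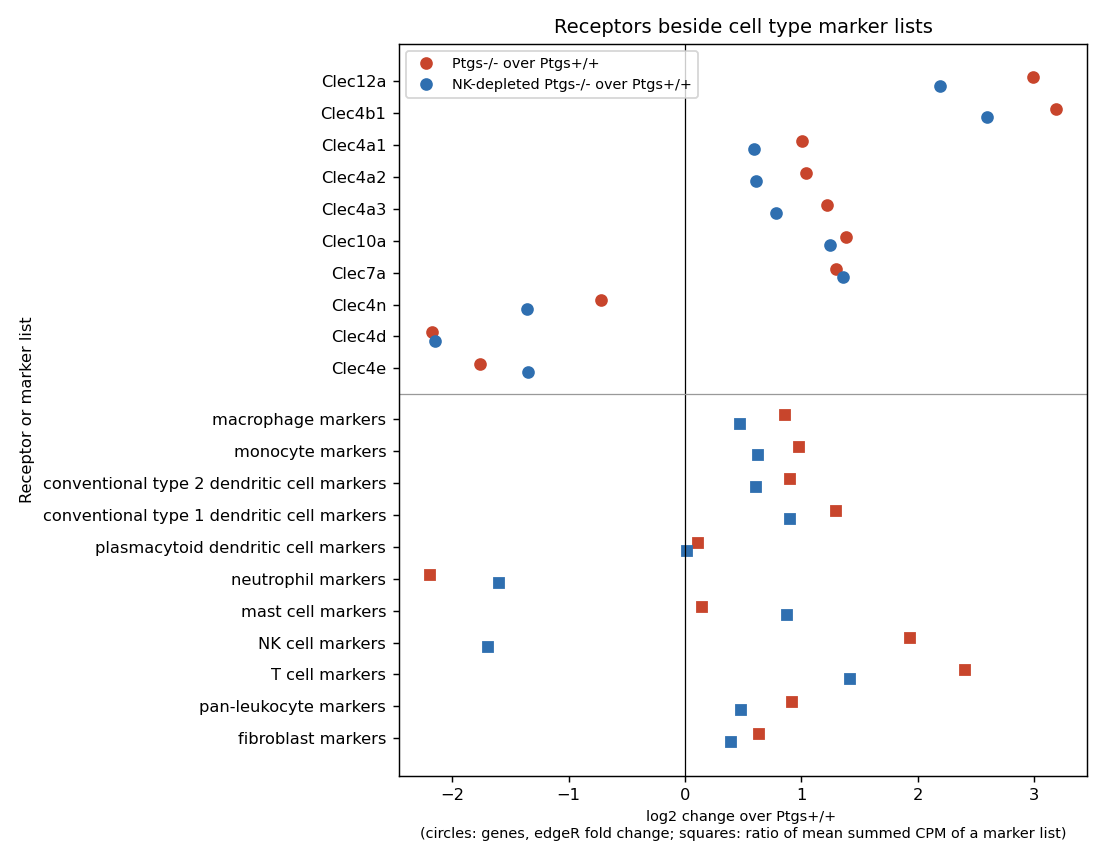
Log2 change over Ptgs+/+ tumors (horizontal axis) of the 10 receptors (circles, edgeR fold change) and of 11 cell type marker lists (squares, ratio of the mean summed CPM) in Ptgs-/- tumors of untreated (red) and NK cell-depleted (blue) hosts. Clec12a and Clec4b1 lie to the right of every list drawn in the same colour. They were picked for their rise in the red comparison, and the blue one shares its Ptgs+/+ tumors, so this place is a description only. Single genes of the lists can change by more than the sums. Ccl17 of the type 2 dendritic cell list rose by 4.77 in Ptgs-/- and 3.3 in depleted tumors, more than either receptor. Trac (3.09) and Cd3e (3.03) of the T cell list rose by more than Clec12a in Ptgs-/- tumors. Clec4d and Clec4e lie on the side of the neutrophil markers, and the NK cell markers change sides, from 1.93 to -1.69. The melanocytic, keratinocyte and skeletal muscle lists are not drawn, and the last of these changed by more than any receptor in depleted tumors (5.57).

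The remaining lists gave less to set beside the receptors. Of 7 NK cell markers tested, 6 rose in Ptgs-/- tumors, 4 fell in depleted tumors and all 7 were higher with than without NK cells, whereas Clec12a and Clec4b1 were higher than in Ptgs+/+ tumors in both. Of 7 T cell markers 6 rose in Ptgs-/- and 3 in depleted tumors, at a summed level of no more than 36.4 CPM. Of 5 plasmacytoid dendritic cell markers 2 rose in Ptgs-/- tumors and 1 in depleted tumors, of 6 mast cell markers none passed in any comparison, of 6 fibroblast markers 4 and 1 rose, and of 3 keratinocyte markers tested Krt5 fell in Ptgs-/- tumors. The 6 pan-leukocyte genes all rose in Ptgs-/- tumors and 2 of them in depleted tumors, and relative to their sum Clec12a was up by 2.07 and 1.73 and Clec4b1 by 2.27 and 2.14 (log2). All 6 skeletal muscle genes were higher in depleted tumors than in both other groups, and 2 of them, Myh4 and Actn3, also rose in Ptgs-/- tumors of untreated hosts (1.95 and 2.02), and their part in the receptors' values was not tested.

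Of the 12 genes of the signalling chain behind the activating receptors, 9 rose and none fell in Ptgs-/- tumors. Over all genes tested, 12.1% passed the FDR upward there. The sum of the 12 rose by 0.67 on the log2 scale, less than the macrophage (0.86) and pan-leukocyte (0.92) sums. The adaptors Fcer1g and Tyrobp were at 0.69 (SE 0.13, edgeR adjusted p = 0.00322) and 0.57 (SE 0.12, adjusted p = 0.0055) on the log2 scale, the kinase Syk at 0.69 (adjusted p = 0.00556) and Card9, which links Syk to NF-kB, at 1.13 (SE 0.34, adjusted p = 0.0334). Fcer1g, the chain that Clec4b1 and the 3 falling receptors share, was at 161.6 to 194.9 CPM in Ptgs+/+ tumors and 229.7 to 333.5 in Ptgs-/- tumors. Prkcd (1.31), Vav1 (0.88), Plcg2 (0.86) and Lyn (0.61), kinases and their partners around Syk, were among the others that rose, while Bcl10 (-0.04) and Malt1 (0.43) were among those that did not pass. In depleted tumors 1 of the 12, Prkcd (1.02, adjusted p = 0.000363), passed, Fcer1g was at 0.24 and Syk at 0.32, and none passed between Ptgs-/- tumors with and without NK cells. Of the phosphatases that inhibitory receptors recruit, Ptpn6, which encodes SHP-1, rose in both (1.09, adjusted p = 0.000589, and 0.64, adjusted p = 0.0166), Inpp5d rose in untreated hosts alone (0.54, adjusted p = 0.023, against 0.32, adjusted p = 0.198, a difference that did not pass, with an adjusted p of 0.676), and Ptpn11 was at -0.13 and -0.1 without passing.

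Cytokines and other genes known to follow Card9 signalling went both ways. Of 11 tested, 4 rose and 4 fell in Ptgs-/- tumors, and 1 rose and 3 fell in depleted tumors. Il6 (-3.39), Cxcl1 (-2.65), Il1b (-2.15) and Cxcl2 (-1.89), cytokines of acute inflammation and chemokines that attract neutrophils, were the 4 that fell. Il12b (2.52), Il10 (1.83), Ccl4 (1.36) and Egr2 (0.75) were the 4 that rose, of which Egr2 also passed in depleted tumors (0.68, edgeR adjusted p = 0.00977). Ccl4, a chemokine for monocytes and lymphocytes, was the 1 gene of the list that differed between Ptgs-/- tumors with and without NK cells (1.35, adjusted p = 0.0205). Il1b was at 85.8 to 99.7 CPM in Ptgs+/+, 18.9 to 23.3 in Ptgs-/- and 20.3 to 23.9 in depleted tumors, and its log2 fold change in depleted tumors was -2.05 (adjusted p = 8.91e-06). Of 5 endogenous ligand genes tested 1, Lgals9, rose in Ptgs-/- tumors (0.65, adjusted p = 0.0364) and none passed in depleted tumors. Among 26 other lectin-fold receptors tested 5 rose and none fell in Ptgs-/- tumors, and 2 rose and 1 fell in depleted tumors. Asgr2 (2.37), Mgl2 (2.24), Cd69 (2.05), Clec9a (1.69) and Clec3b (1.34) were the 5, with a median of 0.32 over the 26. In depleted tumors Mgl2 (1.88) and Clec9a (1.53) rose, Thbd (-0.61) fell and the median was 0.39.

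Across the 10 tumors the receptors' log2 CPM followed the split between those that rose and those that fell. Clec12a and Clec4b1 had a Pearson's r of 0.98, Clec4d and Clec4e of 0.95, and Clec4e and Clec10a of -0.96, values in which the difference between groups weighs heavily. After subtraction of each group's mean, Clec4a1 and Clec4a3 had an r of 0.92, Clec4a3 and Clec4n of 0.88, Clec4a2 and Clec10a of 0.85, Clec4d and Clec4e of 0.74, and Clec12a and Clec4b1 of 0.49. Clec4n, which fell with Clec4d and Clec4e between groups, went against them within groups, with an r of -0.55 and -0.67. Ptgs-/- replicate 1 was the lowest of its group in 8 receptors and the highest in the other 2, Clec4d and Clec4e. These correlations rest on 10 tumors of 3 groups and 2 experiment codes that were scaled together, and are given as a description.

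Genes among those most like each receptor over the 10 tumors were found by Pearson's r of log2 CPM. For Clec12a they were Fam49a (0.989), Lair1 (0.988) and Dpep2 (0.984), for Clec4b1 Cd84 (0.991), Gas7 (0.989) and Cybb (0.988), and for Clec10a Tmem106a (0.983), Fcgr3 (0.982) and Mgl2 (0.981). Clec4a1 had Slfn2 (0.986), Ptpn6 (0.981) and Ap1s2 (0.979) nearest, Clec4a2 had Ckb (0.99), C1qa (0.984) and Arhgap45 (0.983), and Clec4a3 had Tyk2 (0.98), Smap2 (0.977) and Slfn2 (0.971). For the receptors that fell, genes among the nearest were Slc39a13 (0.986), Arid5b (0.979) and Dkk2 (0.978) with Clec4d, Usp47 (0.981) and Akr1b8 (0.98) with Clec4e, and Rtel1 (0.955), Mphosph9 (0.928) and Adam17 (0.925) with Clec4n. Clec7a had Hps5 (0.97), Traf5 (0.965) and Acot11 (0.963). The difference between groups enters each of these values.

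Some reads of these paralogs could be counted for more than 1 gene. Of the distinct runs of 50 bases in the last 500 bases of the Clec4b1 transcripts, 12.9% also occur in transcripts of Clec4a2, and of those of Clec4a2 and Clec10a, 8.96% and 13.8% occur in some other gene. The share was 1.1% for Clec4n and 0 for the other 6 receptors. How reads that fit several genes were counted is not given in the sources used here, so the levels of Clec4b1, Clec4a2 and Clec10a are uncertain, by an amount that these shares do not bound. No other annotated gene overlapped any of the 10.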

How the data were processed

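The 10 libraries were QuantSeq 3′ libraries of total RNA from bulk tumors. The authors mapped trimmed reads on the GRCm38 genome (STAR), assigned them to Ensembl genes by featureCounts and deposited raw counts per gene without normalization or pooling; use of strand and of reads that map to several genes is not given in the sources used here. Groups came from the labels. Of 45706 identifiers 45143 were named by GENCODE M21. The members and gene lists were chosen with earlier results of these data known.

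Counts were tested with edgeR 4.0.16 (R 4.3.3; filterByExpr, TMM, quasi-likelihood test, all 10 libraries in 1 model, Benjamini-Hochberg over 14550 genes). The study's thresholds were used (FDR 0.05, absolute log2 fold change 1.5), and FDR alone as a second count. Log2 CPM had a prior count of 2. Nothing in the labels says more than that the tumors were separate samples, so p-values measure the spread between them. Replicates differed by a chi-square of 7.75 to 32.3 per degree of freedom, so no library was a repeat count of another. This value cannot tell whether 2 libraries were prepared from 1 tumor. Named were the 10 members, the adaptors and phosphatases, at most 4 called genes of any other list and comparison, the 3 genes nearest to each member, and called genes within the chromosomal stretches. Some genes that this rule names are not reported here. Named beyond this rule, after their values were seen, were checks (Ptgs1, Ptgs2, Ly6g, Ncr1, Tyrp1, Mlana, Mitf) and uncalled neighbours (Clec4a4, Clec4b2, Clec12b, Clec1b, Clec1a). So were Cxcl2, Il10, Clec3b, Fn1 and Sirpa. The ratios to monocyte, neutrophil and type 2 dendritic cell markers were also chosen after the values were seen. Alternatives were DESeq2 1.42.0, other scalings, filters and tests, only the groups compared, the experiment code, the label number as a block, and each library left out.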

Additional observations from a re-analysis of the deposited data

How the results depend on the processing

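Directions of the 10 receptors against Ptgs+/+ tumors held in both comparisons under all 20 alternatives, which for Ptgs-/- tumors of untreated hosts, the contrast that chose the family, is a description; there Clec4n ranged from -0.8 to -0.6 and lost its pass of the FDR in 6. With the FDR alone as threshold, 3360 genes and 10 receptors passed in Ptgs-/- and 1818 and 10 in depleted against Ptgs+/+ tumors. With at least 10 counts in every library, which tests fewer genes, 305, 142 and 36 genes were called in the 3 comparisons. Leaving out 1 library gave 480 to 723 genes and 3 to 5 receptors in Ptgs-/-, and 343 to 439 genes and 3 to 5 receptors in depleted against Ptgs+/+ tumors; the 5 in the latter came without depleted replicate 1, where Clec4e (-1.55) and Clec7a (1.5) joined. Between Ptgs-/- tumors with and without NK cells it gave 100 to 213 genes, with 100, 107 and 103 without Ptgs-/- replicate 2, Ptgs-/- replicate 3 and depleted replicate 3, and the first experiment code alone gave 87. In that comparison differences near 0 changed sign: Clec4d was at 0.01 with library size alone, 0.01 with DESeq2, 0.1 with the experiment code as a term, 0.18 within the first code and -0.51 to 0.24 with 1 library left out, Clec10a at -0.15 to 0.36 and Clec7a at -0.28 to 0.16 with 1 library left out; the cause was not tested. With the label number as a replicate block, 610, 400 and 156 genes and 4, 3 and 0 receptors were called, and no receptor's call changed. Deviations of same-numbered tumors correlated between -0.24 and 0.36, over 0.1 in 4 of 11 pairs. Those of other tumors correlated between -0.43 and 0.17, over 0.1 in 7 of 22 pairs. With 3 or 4 tumors a group, this check cannot settle whether the numbers pair the tumors. The depth limits Clec4e most, with 17 to 141 counts a library.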
